A study of Rattus norvegicus with 4 samples.

Results

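The circular RNAs (circRNAs) described here come from host genes of cell division, DNA replication and the centrosome, in rat sciatic nerve. A circRNA forms when the end of an exon is spliced back to the start of the same or an earlier exon, and it is counted by the reads that cross this back-splice junction. Members were chosen by the symbol of the host gene: gene families of the centrosome (Cep), centromere (Cenp), kinesins (Kif), replication (Mcm, Pola, Pold, Pole), cyclins, spindle checkpoint, chromosome structure, Fanconi and BRCA repair and the anaphase-promoting complex, plus 7 single genes (Casc5, Atad2, Melk, Mki67, Ect2, Anln and Diaph3). This list of symbols was drawn up with earlier results of these data known. The members number 42 of 4942 circRNAs and 29 of 2327 host genes.

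The study compared 2 libraries of crushed nerve with 2 of sham-operated nerve from Sprague-Dawley rats at postnatal week 6, without any genetic change or drug in either group. For the crush group, a hemostatic forceps was closed on 3 mm of nerve 2 times, for 15 s each with 3 s between, and the sham group had the nerve exposed and left uncrushed. Both groups were sampled 24 h after surgery, the crushed piece with 1 mm of nerve at each end, and total RNA was sequenced. Whether libraries of the same group came from separate rats is not stated in the labels, so p-values below reflect only the spread between these libraries, which may be technical.

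A dividing cell copies its DNA in S phase, builds a spindle from duplicated centrosomes, attaches chromosomes to it through kinetochores, and separates the daughter cells by cytokinesis. Most cells of an intact peripheral nerve are out of the cell cycle, whereas injury is known to be followed by division of Schwann cells and fibroblasts and by entry of leukocytes. Centrosome proteins and many kinesins also work outside division, at the base of cilia and in cargo transport along axons.

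The circRNAs of these hosts were few and thinly covered. The crush libraries held 47 and 50 of their junction reads (of 8250 and 9027 in all) and the sham libraries 34 and 41 (of 9018 and 8726). As a share of the library, this was 0.570% (95% exact Clopper-Pearson interval 0.419% to 0.757%) and 0.554% (0.411% to 0.730%) after crush. After sham it was 0.377% (0.261% to 0.526%) and 0.470% (0.337% to 0.637%). Both crush shares lay above both sham shares, but every interval of a crush library overlapped those of the sham libraries. The intervals cover counting error only.

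In SRPBM, the unit in which the authors scaled junction reads to each library, the summed level was 3.41 and 2.99 after crush and 2.48 and 3.22 after sham. The means were 3.20 ± 0.30 and 2.85 ± 0.53 (SD, n = 2), a crush to sham ratio of 1.12, and the groups overlapped. The ratio depended on which circRNAs were summed. Without Cep112, a host lower in both crush libraries, the sums were 3.12 and 2.81 after crush and 1.68 and 2.20 after sham. Over circRNAs called in at least 2 libraries, the log2 crush to sham ratio was -0.44, against 0.17 for all members. No p-value is given for these sums, since the members were chosen with results of these libraries known.

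Each crush library had 17 of the 42 circRNAs called, and the sham libraries had 10 and 12. Thinned to the depth of the shallowest library, the expected numbers were 17.0 and 15.6 after crush and 8.98 and 11.2 after sham. Over all circRNAs of the series the mean number called was 1903.5 after crush and 1707.5 after sham, so crush libraries had more calls there too. The caller listed no count of 1, and 9, 8, 6 and 7 of the members called in the respective libraries had exactly 2 reads. Over all circRNAs called, 43.8%, 45.1%, 39.0% and 43.1% had exactly 2 reads, a smaller share than among the members in each library. This difference was not tested.

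**Figure D1:**
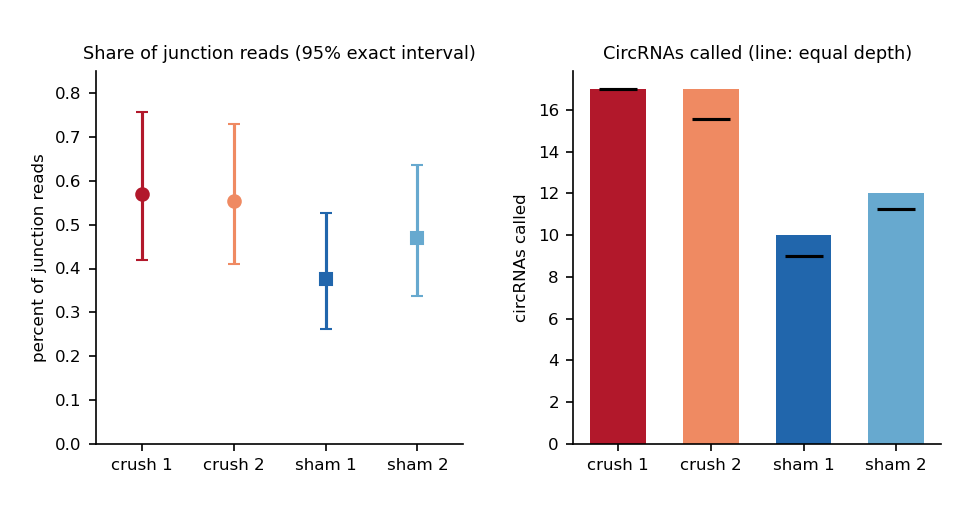
Left, share of each library's junction reads (percent) held by the 42 circRNAs, with 95% exact binomial intervals. Right, number of the 42 circRNAs called in each library (bars) and the number expected at the depth of the shallowest library (lines). The crush libraries sit at 0.570% and 0.554% with 17 circRNAs each, the sham libraries at 0.377% and 0.470% with 10 and 12.

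Few of these circRNAs were seen more than once. Of the 42, 34 (81.0%) were called in 1 library, against 3587 of 4942 (72.6%) in the whole series, and 2 were called in all 4, those of Cep112 and Anapc7. Of 30 circRNAs called in either crush library, 4 were called in both (13.3%; 21.8% over all circRNAs). Of 19 called in either sham library, 3 were called in both (15.8%; 23.2% over all). A listed 0 beside 2 to 7 reads in the other library of the same group was therefore the usual case for these hosts.

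The label of the group held in part. Mitotic kinesins (such as Kif11, Kif20a and Kif23) had no circRNA listed, and the proliferation marker Mki67, the condensin (Ncap) family, Brip1, Anln and Diaph3 had none either. The 6 kinesin hosts were Kif1b, Kif1c, Kif5b, Kif13a, Kif13b and Kifap3, genes of cargo transport. Ccnc, a cyclin that works mainly with the Mediator complex in transcription, was the 1 cyclin listed. Hosts with an established part in S phase, mitosis or centriole duplication included Top2a, Bub1b, Casc5, Cenpk, Cenpj, Ect2, Melk, Atad2, Pola1, Mcmbp and Anapc7.

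**Figure D2:**
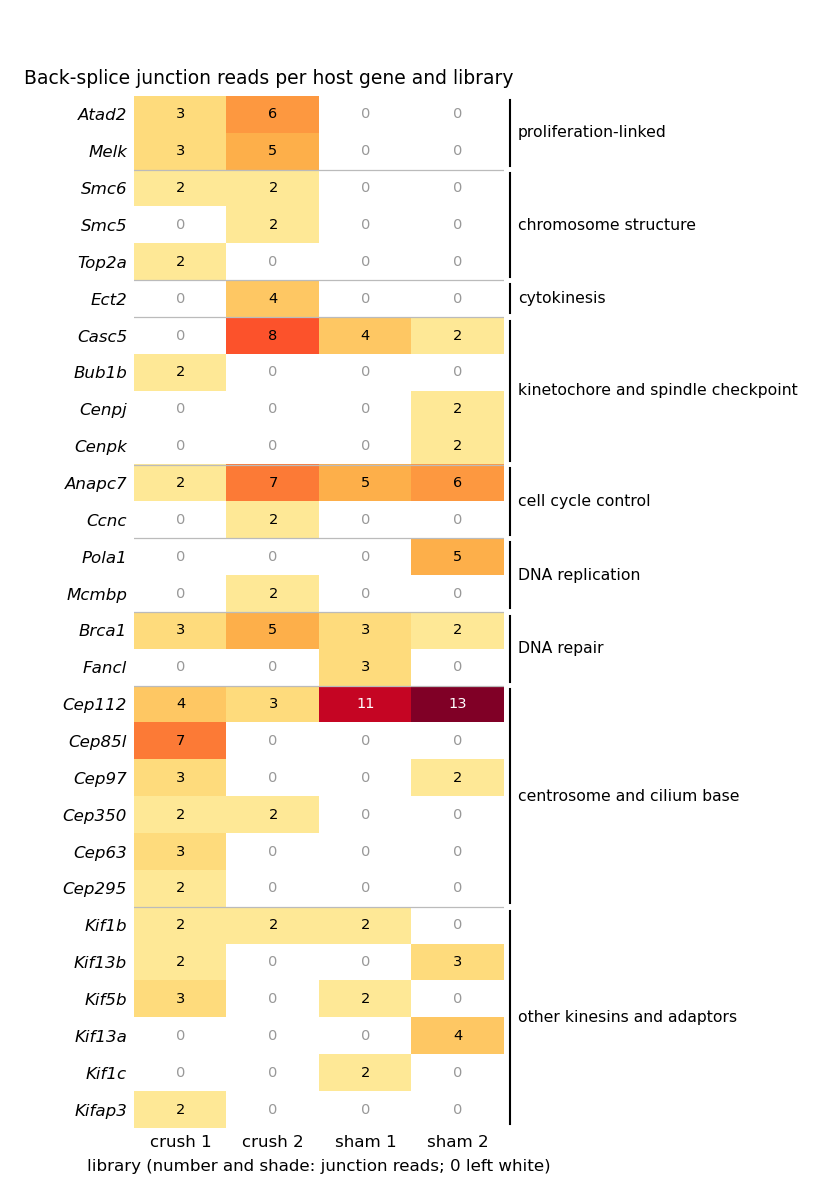
Junction reads of 28 of the 29 host genes (rows, ordered by role) in the 4 libraries (columns), summed over the circRNAs of the host. Shade and number give the reads, with 0 left white. Atad2, Melk, Smc6 and Cep350 have reads in both crush libraries and neither sham library, and Cep112 has 11 and 13 reads after sham against 4 and 3 after crush.

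Melk and Atad2, genes with raised expression in dividing cells, had reads in both crush libraries and none called after sham. Melk (ENSRNOG00000013598), a protein kinase gene expressed in dividing and progenitor cells, had 1 exonic circRNA at chromosome 5, 59831651 to 59833591. The crush libraries held 3 and 5 of its reads and the sham libraries none, or 0.258 ± 0.058 SRPBM after crush (SD, n = 2). Against a floor of 3 reads in each sham library, its mean level was at least 1.14-fold higher after crush. Crush replicate 1 alone, at 0.2175 SRPBM, lay below that floor in both sham libraries (0.2186 and 0.2359). Atad2 (ENSRNOG00000025604), a chromatin-bound bromodomain ATPase gene that is active in proliferating cells, had 3 and 6 reads in the crush libraries and 0 in each sham library. The bound for Melk assumes no more than 3 reads behind each 0 and leaves out counting error in the crush reads. For Atad2 no bound is given, since each of its circRNAs could hide reads under a listed 0.

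The reads of Atad2 came from 3 exonic circRNAs, each called in a single library. That at chromosome 7, 98013010 to 98016382, had 3 reads in crush replicate 1, and those at 97988309 to 97993174 and 98016247 to 98017578 had 3 each in crush replicate 2. The agreement between the crush libraries for this gene thus holds for the host and for no single back-splice. The 2 hosts of the proliferation-linked role together held 6 and 11 reads in the crush libraries and 0 in each sham library. Other hosts with a part in S phase or mitosis were listed after sham, among them Pola1, Cenpk, Casc5 and Anapc7.

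Among the 3 hosts of chromosome structure, only Smc6 had the same pattern, at fewer reads. Smc6 (ENSRNOG00000004908), a subunit of the SMC5/6 complex that acts in DNA repair and chromosome segregation, had 2 reads in each crush library and none called after sham. Its reads came from different exonic circRNAs in the libraries, at chromosome 6, 36946961 to 36951767 in crush replicate 1 and 36992787 to 36994150 in crush replicate 2. Its partner Smc5 had 2 reads in crush replicate 2, and Top2a, the topoisomerase that untangles sister chromosomes, had 2 in crush replicate 1. The 3 hosts of this role held 4 reads in each crush library and 0 in each sham library. Ect2, an exchange factor that starts the cleavage furrow in cytokinesis, had 4 reads in crush replicate 2 alone. Each of these values is close to the smallest count the files list. Reads in 1 crush library and no sham library, as for Smc5, Top2a and Ect2, were seen for 10 of the 29 hosts (34.5%). Of all hosts, 27.7% had this pattern.

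Cep350 (ENSRNOG00000003882), a large centrosome protein gene, completed the hosts with reads in both crush libraries and neither sham library. It had 2 and 2 reads, again from different exonic circRNAs, at chromosome 13, 73558245 to 73562462 and 73577420 to 73579409. This pattern was met by 4 of the 29 hosts (13.8%), Atad2, Cep350, Melk and Smc6, against a background of 6.27% of all hosts (146 of 2327). The same 4 were the hosts with both crush libraries above both sham libraries in SRPBM, against 11.1% of all hosts (258 of 2327). Counted by circRNA, reads in both crush libraries and neither sham library held for 1 member, that of Melk (2.38%). This was below the 4.51% of all circRNAs, so the excess seen for hosts was not seen for single circRNAs. Atad2, Cep350 and Smc6 met the pattern only by summing different circRNAs, each called in 1 library. The reverse pattern, reads in both sham libraries and neither crush library, was met by 0 of the 29 against 4.94% of all hosts (115 of 2327). With reads in 1 or both crush libraries and no sham library there were 14 of 29 hosts (48.3%; background 33.9%), and the reverse held for 7 of 29 (24.1%; background 28.9%). These counts are descriptions of few reads, and no test was made of their difference from the background.

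Leukocyte markers with a listed circRNA had reads after crush alone. Of 24 leukocyte marker genes, 10 had a circRNA listed, with 76 and 72 junction reads in the crush libraries and 0 in each sham library. They were Arhgap15, Csf3r, Dock2, Dock8, Ikzf1, Itgam, Lcp1, Lyn, Ptprc and Syk, and defining markers such as Cd68, Lyz2, Itgb2 and Csf1r had no circRNA listed. The summed level of the 10 was 5.51 and 4.31 SRPBM after crush. Their part in the result for Melk, Atad2, Smc6, Smc5, Top2a, Ect2 and Cep350 was not tested. In whole nerve, more cells of a type and more circRNA per cell cannot be told apart.

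Promoters of hosts whose crush and sham libraries lay apart, except Atad2, are shown because the host's promoter drives the transcript that is back-spliced. The hosts that lay apart were Atad2, Melk, Cep350 and Smc6, listed after crush alone, and Cep112, lower in both crush libraries than in either sham library. The sequences, for Melk, Cep350, Smc6 and Cep112, are RefSeq's for GRCr8, 250 bases before to 50 after the gene start, on the gene's strand and 5′ to 3′. They lie at chr5:63335901-63336200 (plus strand), chr13:70714624-70714923 (minus), chr6:39697595-39697894 (plus) and chr10:93865449-93865748 (plus). Capitals mark a match to 1 of 5 motifs searched on both strands.
Melk: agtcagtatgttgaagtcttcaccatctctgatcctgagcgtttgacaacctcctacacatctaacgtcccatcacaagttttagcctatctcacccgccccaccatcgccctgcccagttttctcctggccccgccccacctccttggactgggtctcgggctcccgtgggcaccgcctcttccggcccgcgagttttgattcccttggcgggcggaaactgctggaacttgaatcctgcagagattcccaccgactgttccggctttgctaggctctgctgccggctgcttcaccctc
Cep350: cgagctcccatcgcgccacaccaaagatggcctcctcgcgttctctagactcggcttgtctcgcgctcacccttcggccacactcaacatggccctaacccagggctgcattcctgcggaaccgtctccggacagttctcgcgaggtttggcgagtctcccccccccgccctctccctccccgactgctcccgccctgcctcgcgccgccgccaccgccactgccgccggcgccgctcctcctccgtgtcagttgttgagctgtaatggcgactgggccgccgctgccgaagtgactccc
Smc6: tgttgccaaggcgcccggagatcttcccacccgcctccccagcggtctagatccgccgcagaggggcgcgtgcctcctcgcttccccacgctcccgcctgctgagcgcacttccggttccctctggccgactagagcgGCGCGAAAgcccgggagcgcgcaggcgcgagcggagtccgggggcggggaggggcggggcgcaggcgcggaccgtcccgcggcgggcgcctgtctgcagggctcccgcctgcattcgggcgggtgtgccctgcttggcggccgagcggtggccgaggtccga
Cep112: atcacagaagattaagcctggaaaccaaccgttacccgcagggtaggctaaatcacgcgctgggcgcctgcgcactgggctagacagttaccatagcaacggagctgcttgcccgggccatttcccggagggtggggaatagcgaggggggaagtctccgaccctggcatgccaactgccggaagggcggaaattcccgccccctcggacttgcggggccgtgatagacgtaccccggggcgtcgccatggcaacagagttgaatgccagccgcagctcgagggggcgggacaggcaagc

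The motifs were the cell cycle homology element TTTGAA, 3 forms of the E2F site (TTTGGCGC, TTTCCCGC and TTTCGCGC) and the CCAAT box CCAAT. These elements are known from promoters of genes that peak in S phase and mitosis. The single match in the 4 promoters was GCGCGAAA in that of Smc6, the reverse complement of TTTCGCGC, which 0.326% of 33469 rat promoters hold. Over the 26 hosts with a promoter in the table, TTTGAA was found for 6 (Anapc7, Bub1b, Cep295, Ect2, Knl1 and Top2a), and 18.3% of all promoters hold it. CCAAT was found for 13 of the 26, and 37.5% of all promoters hold it. TTTGGCGC was found for Pola1 alone (0.493% of all promoters), and TTTCCCGC for Fancl and Mcmbp (0.974%). A match shows that the letters occur and does not show a bound factor.

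Genes of the kinetochore and the spindle checkpoint were listed in both groups. Casc5 (ENSRNOG00000060100), now named Knl1, encodes the outer kinetochore scaffold on which checkpoint proteins gather. Its crush libraries held 0 and 8 reads and its sham libraries 4 and 2, so the crush libraries lay on both sides of the sham libraries. Its 4 exonic circRNAs, the most of any host here, lay between 110880294 and 110898731 of chromosome 3. The widest of them, 110880294 to 110894139, had 3 reads in crush replicate 2 and 2 in each sham library. Bub1b, a checkpoint kinase gene, had 2 reads in crush replicate 1. Cenpk, of the inner kinetochore, and Cenpj, whose protein builds centrioles, had 2 each in sham replicate 2. The 4 hosts together held 2 and 8 reads in crushed nerve, 4 and 6 in sham nerve. Without Cenpj, which was grouped here by its symbol, sham nerve had 4 and 4.

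Anapc7 (ENSRNOG00000001283) encodes a subunit of the anaphase-promoting complex, the ubiquitin ligase that ends mitosis, and was 1 of the 2 hosts with enough reads to be tested. Its crush libraries held 2 and 7 reads and its sham libraries 5 and 6, with mean levels of 0.282 ± 0.193 and 0.418 ± 0.076 SRPBM. The groups overlapped, and the log2 change, crush minus sham, was -0.10 ± 0.90 (SE; adjusted p = 0.966, edgeR quasi-likelihood test). Nearly all reads came from the exonic circRNA at chromosome 12, 39627016 to 39635912, which had 2 and 7 against 5 and 4. A second back-splice from the same start, ending at 39636758, had 2 reads in sham replicate 2. The sign of the host's change turned to 0.61 without crush replicate 1 and to 0.02 without sham replicate 2.

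Replication and repair hosts showed no common direction. Brca1 (ENSRNOG00000020701), a gene of homologous recombination, held 3 and 5 reads in the crush libraries, 3 and 2 in the sham libraries. Its mean levels were 0.258 ± 0.058 and 0.188 ± 0.043 SRPBM. It was the only host besides Cep112 and Anapc7 with reads in all 4 libraries. Its main circRNA, exonic at chromosome 10, 89402919 to 89409533, had 3 reads in each of crush replicates 1 and 2 and sham replicate 1 and none called in sham replicate 2. Pola1 (ENSRNOG00000013322), the catalytic subunit of the polymerase that primes DNA synthesis, had 5 reads, all in sham replicate 2. They came from exonic circRNAs of chromosome X with a common end at 62570599, which began at 62537349 (3 reads) and 62551417 (2 reads). Fancl had 3 reads in sham replicate 1, and Mcmbp and Ccnc 2 each in crush replicate 2.

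Cep112 (ENSRNOG00000024557), which encodes a centrosomal coiled-coil protein, was the most abundant host of the set and the 178th of all 2327 hosts by mean SRPBM. Its single exonic circRNA lay at chromosome 10, 96672236 to 96679543. The crush libraries held 4 and 3 of its reads, the sham libraries 11 and 13. Mean levels were 0.235 ± 0.078 SRPBM in crushed nerve and 0.912 ± 0.156 SRPBM in sham nerve (SD, n = 2). Both crush libraries lay below both sham libraries. Such a pattern was met by 1 of the 29 hosts (3.45%), against 13.7% of all hosts (318 of 2327). The log2 change of the host was -1.53 ± 0.69 (SE) and did not pass the test over all hosts (adjusted p = 0.225, edgeR; unadjusted p = 0.0646). At the level of circRNAs it was -1.53 ± 0.60 (adjusted p = 0.180, edgeR). The direction was the same in all alternatives in which the gene was tested, with adjusted p from 0.141 to 0.563 for the host (edgeR and DESeq2). Without either sham library it had too few reads to be tested.

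The summed reads of skeletal muscle markers were lower after crush, as were those of Cep112. Of 16 muscle marker genes 5 had a circRNA listed, with 76 and 84 reads in the crush libraries, 207 and 235 in the sham libraries, nearly all from Mlip (76 and 79 against 204 and 226). Ttn, Ckm and Actn2 had no circRNA listed, Neb had 0 and 0 reads against 0 and 2, and Myh1 0 and 0 against 3 and 5. The others were not lower in both crush libraries, Ryr1 with 0 and 2 against 0 and 0 and Dmd with 0 and 3 against 0 and 2. Of 16 Schwann cell markers 4 had one, with 4 and 3 reads against 3 and 14, and Prx and Sox10, which define the cell, had none. Of 12 fibroblast and perineurium markers 4 had one, with a summed level of 0.145 and 0.538 SRPBM against 0.801 and 0.786. Among them Lama2 had 0 and 2 reads against 7 and 8, and Dcn 0 and 7 against 0 and 0. Of 10 endothelium markers 4 had a circRNA listed, with 8 and 8 reads against 7 and 11. Among these, Flt1 had 8 and 8 reads against 4 and 4, and Tek 0 and 0 against 3 and 3. A gene without a listed circRNA can still be expressed as messenger RNA, which was not measured in these files. The part of these markers in the result for Cep112 was not tested.

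The other 6 centrosome hosts differed from Cep112. Together they held 17 and 2 reads in the crush libraries, 2 and 2 in the sham libraries, and crush replicate 1 held most of them. Cep85l had 7 reads in crush replicate 1 and none called elsewhere, from an exonic circRNA at chromosome 20, 34646376 to 34656748. Cep97, a gene that limits the growth of cilia, had 3 reads in crush replicate 1 and 2 in sham replicate 2. Cep63, of centriole duplication, and Cep295 had 3 and 2 reads in crush replicate 1. The summed level of these 6 hosts was 0.676 ± 0.787 SRPBM after crush and 0.152 ± 0.008 after sham (SD, n = 2). With Cep112 included, the role sum was 0.911 ± 0.865 after crush and 1.06 ± 0.16 after sham. With the crush libraries so unequal, neither sum showed a difference beyond the replicate spread.

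Transport kinesins held 9 and 2 reads in the crush libraries, 6 and 7 in the sham libraries, over 6 hosts and 8 circRNAs. Kif1b (ENSRNOG00000057626), a motor of axonal transport, had 2 reads in each crush library and in sham replicate 1. Kif5b, a heavy chain of conventional kinesin, had 3 and 0 reads against 2 and 0, from separate circRNAs at chromosome 17, 54209230 to 54209739 and 54188205 to 54192960. Kif13b had 2 and 0 reads against 0 and 3. Kif13a and Kif1c were listed after sham alone, with 4 and 2 reads in 1 library each, and Kifap3 had 2 reads in crush replicate 1. No kinesin host had crush and sham libraries apart.

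**Figure D3:**
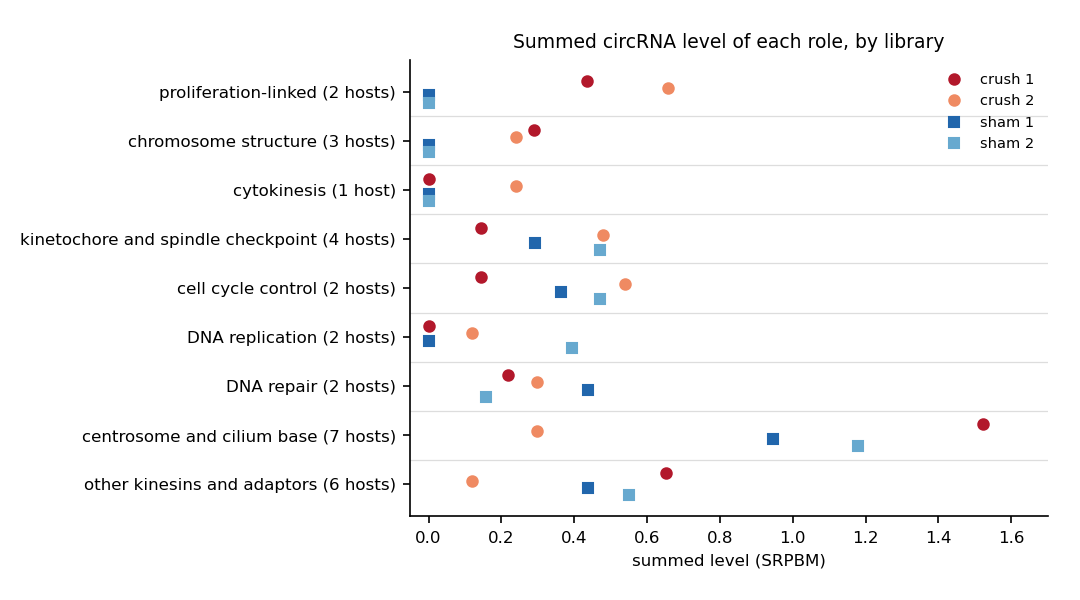
Summed level in SRPBM of the hosts of each role in each library (circles, crush; squares, sham). The proliferation-linked, chromosome structure and cytokinesis roles are at 0 in both sham libraries, the last also in crush replicate 1, while the crush and sham libraries of every role with sham reads overlap.

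No host of the set passed the test over all genes. The edgeR quasi-likelihood test asked for at least 5 reads in at least 2 libraries, which 2 of the 29 hosts met (Cep112 and Anapc7) and 27 did not. Of 434 hosts tested in the series, 10 were called at an adjusted p under 0.05, a background of 2.30%, with 8 higher and 2 lower after crush. With library totals from the SRPBM constants 8 were higher and 6 lower, 57.1% higher against 80.0%, and the median log2 change of all tested hosts moved from 0.11 to -0.30. Of the 2 members tested, 0 were called, 0 had an unadjusted p under 0.05, and DESeq2 called 0. Among 428 circRNAs tested, 51 (11.9%) were called and 0 of the 2 members tested, both also above an unadjusted p of 0.05. With the SRPBM totals 52.5% of the circRNA calls were higher, against 62.7%.

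A filter of at least 2 reads in 2 libraries brought 12 of the hosts into the test. Then 5 of them (Cep350, Smc6, Melk, Cep112 and Atad2) had an unadjusted p under 0.05, as did 293 of all 1125 hosts tested (26.0%), and 0 passed after adjustment among members or all hosts (edgeR). The smallest adjusted p of a member was 0.164. Of the 5, 4 entered this test only through their crush reads, so their count supports nothing by itself.

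Other genes of the cell cycle, replication and the centrosome, from a list of 171 symbols, gave circRNAs for 48. The list holds Knl1 and Cpap, other names of the members Casc5 and Cenpj, and both Mre11 and Mre11a for the same gene. No circRNA was listed under Knl1, Cpap or Mre11, so no member is among the 48. Of the 48, 8 had enough reads to be tested, 4 higher and 4 lower after crush. None passed over all hosts (edgeR), and 1 had an unadjusted p under 0.05. That was Nek1, a kinase gene of cilia and DNA repair, with 5 and 4 reads in crushed nerve, 24 and 18 in sham nerve, and a fitted log2 difference of -1.97 ± 0.54 (adjusted p = 0.0836, edgeR). Lin54, a DNA-binding subunit of the complex that silences cell cycle genes in resting cells, had 16 and 7 reads against 4 and 0, a fitted log2 difference of 2.69 ± 1.14 (adjusted p = 0.202, edgeR). The retinoblastoma gene Rb1, a brake on entry into S phase, had 9 and 13 against 6 and 5 (adjusted p = 0.272, edgeR). Zwilch, of the kinetochore's checkpoint complex, had 5 and 10 against 0 and 4 (adjusted p = 0.347, edgeR). Of the 48, 4 (Clasp1, Lin54, Rb1 and Zwilch) had both crush libraries above both sham libraries in SRPBM (8.33%, against 11.1% of all hosts), and 4 (Blm, Nek1, Rbl1 and Stag1) had both below (8.33%, against 13.7%). Clasp1, Blm, Rbl1 and Stag1 are named here after their values were seen, and Rbl1, with 0 and 2 reads against 2 and 2, lay apart through the library scaling alone.

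**Figure D4:**
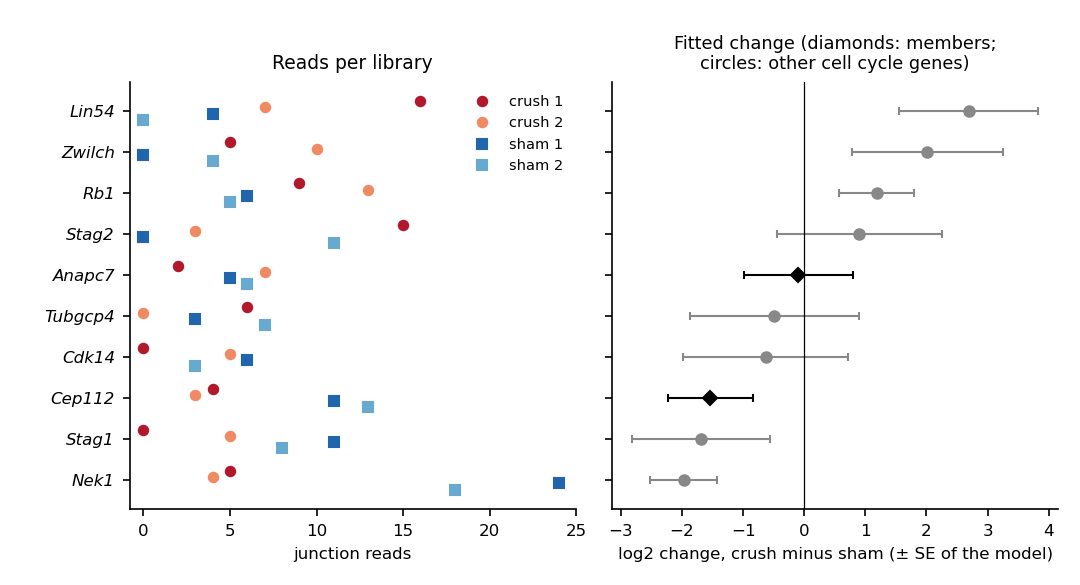
Left, junction reads per library (circles, crush; squares, sham) of Cep112 and Anapc7 and of the 8 other cell cycle and centrosome genes with enough reads to be tested. Right, log2 change, crush minus sham, with the SE of the model. Nek1, Cep112 and Stag1 have fewer reads in both crush libraries than in either sham library, and Lin54, Rb1 and Zwilch have more. None of the 10 passed over all 434 hosts.

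Most members were exonic circRNAs of moderate span. Of the 42, 40 were classed as exonic (95.2%, against 88.7% of 4207 circRNAs with 1 host) and 2 as intronic, those of Cep295 and Kifap3. The span from start to end, introns included, had a median of 4835.5 bases and ran from 509 (Kif5b) to 33250 (Pola1), against a median of 8532 bases for all circRNAs with 1 host. Of the 29 hosts, 9 had more than 1 circRNA (31.0%, against 37.8% of all hosts), with at most 4. In 4 of the 9 (Anapc7, Brca1, Casc5 and Pola1) at least 2 circRNAs shared a start or an end (44.4%, against 66.3% of all hosts with more than 1). No circRNA of another host or of intergenic class overlapped a member. These differences in structure were not tested.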

How the data were processed

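Circular RNA was measured in 4 total RNA libraries. The authors deposited, per library, raw back-splice junction read counts of 4942 circRNAs and SRPBM, a signal equal to the count times 1 constant per library (0.0725, 0.0598, 0.0729 and 0.0786 per read in crush 1, crush 2, sham 1 and sham 2), per the file headers and the values. Per the submitters' processing notes, CASAVA 1.8, BWA and edgeR were used with Rnor_6.0, without stated roles. The circRNA caller was not given in the sources used here. Listed counts were 0 or at least 2. Running numbers of the circRNAs have gaps up to 5095, 1 of them between circRNAs of Casc5, and what they stand for is not analysed here. Positions are printed as the files give them (Rnor_6.0, base convention not stated).

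Reads were summed per host over circRNAs with 1 host. The tests were edgeR 4.0.16's quasi-likelihood test in R 4.3.3 (TMM, at least 5 reads in at least 2 libraries, two-sided, Benjamini-Hochberg over all tested features, threshold 0.05), checked on simulated counts, with DESeq2 1.42.0 among the alternatives. The fold against 0 uses a floor of 3 reads in each library and is given only for a host with 1 circRNA. Members and lists were chosen with earlier results of these data known. Hosts named with values are those tested, those with reads in both libraries of 1 group alone, and the 12 with the highest mean SRPBM. Of the other hosts only reads are given, and 1 member host enters the counts and sums but is not reported here by name. Other pathway genes are named where they passed or had the 4 smallest p-values. Of 29 symbols, 28 were current in RefSeq's GRCr8 table and 1 (Casc5) a synonym.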

Additional observations from a re-analysis of the deposited data

How the results depend on the processing

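No member host passed the threshold under any of the 12 alternatives of the host test, although Cep112 had too few reads for it without either sham library. The filter of at least 2 reads in 2 libraries tested 12 members and the fit with no filter 29. Each other alternative tested only 1 or 2, so it could not have called the rest. The log2 change of Cep112 stayed between -1.94 and -1.12 for the host and between -1.94 and -1.19 for its circRNA. That of Anapc7 ran from -0.98 to 0.61 for the host with 1 library left out and from -0.0084 to 0.87 for its circRNA, which was also -0.24 with SRPBM totals. Over all hosts the number called was 10, and 32 with DESeq2, 0 with at least 2 reads in 2 libraries (293 with an unadjusted p under 0.05, edgeR), 44 with at least 10, 39 with no filter, 20 with exonic circRNAs only, and 0 to 84 with 1 library left out (0 without crush replicate 2, 84 without sham replicate 2). Over all circRNAs it was 51, and 28 with DESeq2, 0 with at least 2 reads (434 unadjusted, edgeR), 23 with at least 10, and 6 to 76 with 1 library left out. Library totals before the read filter, added after seeing the data, gave 14 and 51. With the replicate number as a block, 24 hosts and 0 circRNAs were called (53 unadjusted, edgeR), and 0 hosts and 0 circRNAs with crossed numbers (46 and 62 unadjusted, edgeR), an alternative added after seeing the data. Same-numbered libraries deviated together with a correlation of -0.06 over hosts and -0.11 over circRNAs, so the numbers were not taken as pairs.

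The log2 crush to sham ratio of the summed level was 0.17, and 0.61 without Cep112, -0.44 over circRNAs called in at least 2 libraries and, added after seeing the data, 0.82 without Cep112 and Anapc7. With 1 library left out it ran from -0.01 to 0.37. The excess of member circRNAs called after crush was 6 per library, and 6.17 at equal depth. The cause of these differences was not tested. Counts of 2 to 13 reads limit every value here, and a listed 0 can hide reads.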
